A study of Mus musculus with 4 samples.

Results

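The nuclear genes that encode the respiratory chain and the ATP synthase of mitochondria were followed in 2 sorted mouse blood progenitors with and without Trib1. Members were the genes whose single symbol in the array annotation begins with Nduf (complex I), equals Sdha, Sdhb, Sdhc or Sdhd (complex II), or begins with Uqcr (complex III), Cox4 to Cox8 (complex IV) or Atp5 (complex V). The rule found 90 of 18193 named genes. A member was used where at least 1 array read above 3.29, which is the table's median and is called the floor here, and 83 members did (39 of complex I, 4 of complex II, 8 of complex III, 15 of complex IV and 17 of complex V), among 11653 genes of the whole table. The member just inside the floor was Cox8b, whose highest value was 3.34, and the one just outside was Ndufb1, at 2.85. The other members left out were Ndufaf3, Ndufaf6, Ndufa4l2, Ndufb4, Cox4i2 and Cox7a1. Of the 96 protein-coding genes in RefSeq whose symbols match, 13 were not analysed, the 7 below the floor and 6 others.

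The 4 groups were Trib1-/- MDP, wild-type MDP, Trib1-/- GMP and wild-type GMP, all unstimulated and from mice of a mixed C57BL6J/129SV background, with 1 Affymetrix array each. GMP are granulocyte monocyte progenitors, and MDP is the label of cells whose type is given as macrophage dendritic cell. The deleted part of Trib1, the sort gates and the number of animals behind an array are not stated in the labels. With 1 array per group no difference below has a replicate check, no test was possible, and the number of arrays limits the precision. Values are RMA values on the log2 scale, every difference is a log2 difference of them, and a gene was counted as apart where it differed by at least 1, that is 2-fold. Arrays made from sorted pools measure RNA per population, so fewer cells of a type and less RNA per cell cannot be told apart.

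The respiratory chain passes electrons from NADH (complex I) and succinate (complex II) through coenzyme Q, complex III and cytochrome c to oxygen at complex IV. Complexes I, III and IV pump protons across the inner mitochondrial membrane, and the ATP synthase, complex V, uses the returning protons to make ATP. Most subunits are encoded in the nucleus and imported, and a small set is encoded in mitochondrial DNA, which is not matched by the rule. Stem cells of the blood are known to rely more on glycolysis, and committed myeloid progenitors to carry more active mitochondria.

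Trib1 itself read 4.71 and 5.56 with its 2 probe sets in Trib1-/- MDP and 5.13 and 5.99 in wild-type MDP, and 5.19 and 5.10 in Trib1-/- GMP against 4.85 and 4.95 in wild-type GMP. Its signal does not separate the genotypes, and since the deleted part is not given it does not check the labels, so Trib1-/- means the array so labelled. The labelled cell types showed in their markers: all 8 GMP markers were at least 2-fold lower in wild-type MDP than in wild-type GMP, and 4 of 7 MDP markers were at least 2-fold higher, while Kit was lower. Kit is in both lists and read 2.69 in Trib1-/- MDP and 2.43 in wild-type MDP, below the floor. All 9 mature macrophage markers above the floor were also at least 2-fold higher in wild-type MDP than in wild-type GMP, with a median of 1.68. Between the Trib1-/- progenitors 1 of these 9 was. Of 8 erythroid markers, 6 were below the floor on all 4 arrays, among them the defining genes Hba-a1, Klf1 and Alas2. Tfrc, the transferrin receptor gene of dividing cells in general, read 9.0 in Trib1-/- MDP, 8.94 in wild-type MDP, 8.27 in Trib1-/- GMP and 8.18 in wild-type GMP. Car2, a carbonic anhydrase gene, read 3.25 in Trib1-/- MDP and 4.94 in wild-type MDP, and 5.39 in Trib1-/- GMP against 6.21 in wild-type GMP. Its order over the arrays was that of the medians of the chain genes given below, while Tfrc had the opposite order. The medians of all genes above the floor had the order of Car2 too, at 4.71, 4.72, 4.75 and 4.85. That order is thus not particular to Car2 or the chain genes, and the part of Car2 in them was not tested.

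In GMP the respiratory chain genes were lower on the Trib1-/- array nearly throughout. Of 83 members, 73 were below 0 in Trib1-/- minus wild type, where 55.2% of all genes were, and 21 (25.3%) were at least 2-fold lower and 0 at least 2-fold higher. Of all genes above the floor, 3.16% were at least 2-fold lower and 0.481% higher. The median difference of the members was -0.74, a 1.67-fold lower level, against -0.06 over all genes. Among the 4806 genes whose mean was at or above the 25th percentile of the members' means, 2.18% were at least 2-fold lower and the median was -0.09. All 5 complexes were lower by similar amounts, with medians of -0.78 for complex I, -0.91 for complex II, -0.65 for complex III, -0.66 for complex IV and -0.76 for complex V. The SD of the GMP difference between probe sets of the same gene was 0.384 over 43 members, which covers neither animals nor arrays.

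**Figure D1:**
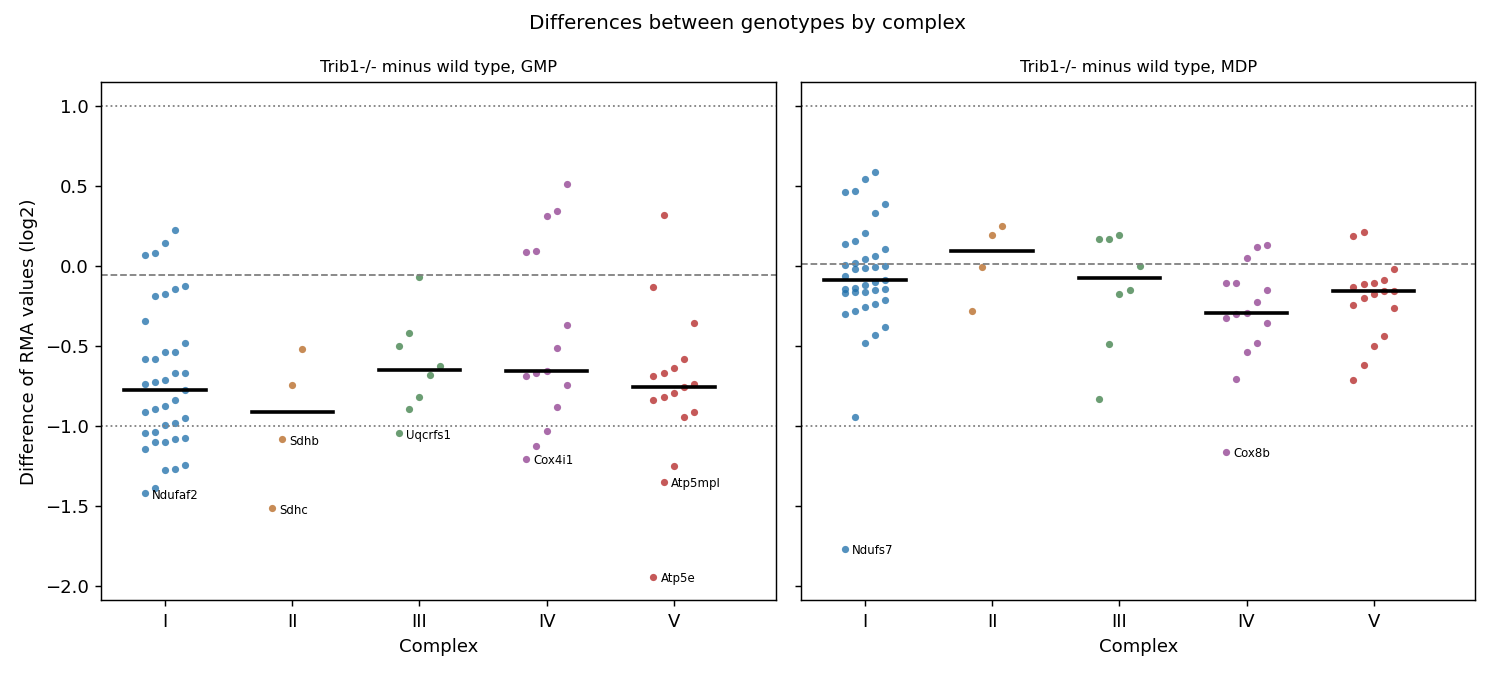
Difference of RMA values (log2, vertical axis) between Trib1-/- and wild type for each of the 83 genes, by complex, in GMP (left) and MDP (right). Points are genes, black bars are medians of a complex, the dashed line is the median of all genes above the floor and dotted lines mark 2-fold. In GMP the medians of the 5 complexes lie between -0.91 and -0.65, and in MDP between -0.30 and 0.09.

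Complex V held the gene furthest apart. Atp5e, the epsilon subunit of the central stalk of F1, read 3.55 in Trib1-/- MDP and 4.26 in wild-type MDP, and 4.17 in Trib1-/- GMP against 6.11 in wild-type GMP. The wild-type GMP array stood above the other 3, and the GMP difference of -1.94 was a 3.84-fold lower level in Trib1-/- GMP. Atp5mpl, a small proteolipid of the membrane part, read 6.13 and 6.57 in Trib1-/- and wild-type MDP, and 6.34 in Trib1-/- GMP against 7.68 in wild-type GMP (-1.35). Atp5k, the e subunit at the dimer interface, read 7.03 and 6.84 in Trib1-/- and wild-type MDP, and 6.33 in Trib1-/- GMP against 7.58 in wild-type GMP (-1.25). Trib1-/- GMP was thus the lowest of the 4 arrays for Atp5k, and its other 2 probe sets were lower in Trib1-/- GMP too, by -0.86 and -0.74. The remaining F1 subunits were Atp5d (-0.94), the gamma shaft gene Atp5c1 (-0.79), the catalytic beta subunit Atp5b (-0.58) and the alpha subunit Atp5a1 (-0.36), all below 0 and less than 2-fold apart.

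Atp5g1, Atp5g2 and Atp5g3 encode precursors with different import signals that give the same mature c subunit, the ring that turns with proton flow. Atp5g1 read 4.98 in Trib1-/- MDP and 5.14 in wild-type MDP, and 5.28 in Trib1-/- GMP against 6.1 in wild-type GMP (-0.82). Atp5g2 read 5.77 in Trib1-/- MDP and 5.94 in wild-type MDP, and 6.21 in Trib1-/- GMP against 7.13 in wild-type GMP (-0.91). Atp5g3 read 7.66 in Trib1-/- MDP and 8.16 in wild-type MDP, and 8.54 in Trib1-/- GMP against 9.37 in wild-type GMP (-0.84). The 3 differed in level but were lower in Trib1-/- GMP by much the same amount. A second probe set of Atp5g1 ran the other way (0.83) at values from 2.70 to 3.63, near the floor. Not every subunit was lower. Atp5md, a small membrane subunit gene, read 7.07 in Trib1-/- MDP and 7.23 in wild-type MDP, and 7.18 in Trib1-/- GMP against 6.86 in wild-type GMP (0.32), and Atp5l, the g subunit, differed by -0.13.

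Complex II, which is also succinate dehydrogenase of the citric acid cycle, was lower in all 4 genes. Sdhc, a membrane anchor, read 4.29 in Trib1-/- MDP and 4.57 in wild-type MDP, and 4.18 in Trib1-/- GMP against 5.69 in wild-type GMP (-1.51), but its second probe set read -0.19. The iron-sulfur subunit gene Sdhb read 4.77 and 4.58 in Trib1-/- and wild-type MDP, and 4.50 in Trib1-/- GMP against 5.58 in wild-type GMP (-1.08). In both genes the other 3 arrays lay close to each other and wild-type GMP stood above them. The second anchor, Sdhd, read 5.38 in Trib1-/- MDP and 5.39 in wild-type MDP, and 5.8 in Trib1-/- GMP against 6.54 in wild-type GMP (-0.75). Sdha, the flavoprotein gene, read 6.91 in Trib1-/- MDP and 6.67 in wild-type MDP, and 6.92 in Trib1-/- GMP against 7.44 in wild-type GMP (-0.52).

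In complex I, 35 of 39 genes were below 0 and 12 were at least 2-fold lower. The catalytic core, the subunits that carry flavin and iron-sulfur clusters, had 6 measured genes, all below 0, with a median of -0.81. Ndufs7, whose product holds the last iron-sulfur cluster before coenzyme Q, read 3.21 in Trib1-/- MDP and 4.97 in wild-type MDP, and 4.43 in Trib1-/- GMP against 5.71 in wild-type GMP. It was lower in Trib1-/- cells of both kinds, by -1.27 in GMP, with its other probe set at -1.25. In MDP it was lower by -1.77, where the other probe set read -0.54. Its Trib1-/- MDP value was below the floor, and the MDP difference was -1.68 with that value raised to it. Ndufs8, another iron-sulfur subunit gene, read 4.46 and 4.57 in Trib1-/- and wild-type MDP, and 4.71 in Trib1-/- GMP against 5.76 in wild-type GMP (-1.04), and all 6 of its probe sets were below 0 in GMP, from -1.48 to -0.44. The other core genes were less than 2-fold apart in GMP. Ndufs3 read 5.95 in Trib1-/- MDP and 5.96 in wild-type MDP, and 6.59 in Trib1-/- GMP against 7.42 in wild-type GMP (-0.83). The iron-sulfur subunit gene Ndufv2 read 6.04 in Trib1-/- MDP and 5.99 in wild-type MDP, and 6.37 in Trib1-/- GMP against 7.15 in wild-type GMP (-0.78). Ndufs1, of the largest iron-sulfur subunit, read 5.26 in Trib1-/- MDP and 5.5 in wild-type MDP, and 5.79 in Trib1-/- GMP against 6.33 in wild-type GMP (-0.54). For all 3 the MDP arrays lay near each other and below both GMP arrays. Ndufv1, which binds NADH, read 4.54 in Trib1-/- MDP and 4.64 in wild-type MDP, and 5.55 in Trib1-/- GMP against 5.74 in wild-type GMP. Its GMP difference was -0.19, although 1 of its probe sets read -1.05.

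The accessory subunits of complex I surround the core. Of 27 measured, 26 were below 0 in GMP and 9 at least 2-fold lower, with a median of -0.89. Ndufb7 read 5.33 in Trib1-/- MDP and 5.18 in wild-type MDP, and 5.46 in Trib1-/- GMP against 6.84 in wild-type GMP (-1.39). Ndufa1 read 2.94 and 2.56 in Trib1-/- and wild-type MDP, both below the floor, and 3.75 in Trib1-/- GMP against 5.01 in wild-type GMP (-1.27). Ndufa6, also below the floor on the MDP arrays (2.99 in Trib1-/- and 3.01 in wild type), read 3.45 in Trib1-/- GMP against 4.69 in wild-type GMP (-1.25). These 3 genes shared a wild-type GMP value above all other arrays. Ndufs5 read 3.96 and 4.12 in Trib1-/- and wild-type MDP, and 3.33 in Trib1-/- GMP against 4.47 in wild-type GMP (-1.14), so that Trib1-/- GMP was again the lowest array. The other 5 at least 2-fold lower were Ndufa4 (-1.10), Ndufab1, the mitochondrial acyl carrier protein gene (-1.10), Ndufb8 (-1.08), Ndufa2 (-1.07) and Ndufv3 (-1.04). Ndufab1 had a probe set in the other direction (0.40), and Ndufa4, named after complex I, is now counted as a subunit of complex IV. Ndufb2 read 6.08 in Trib1-/- MDP and 6.24 in wild-type MDP, and 6.16 in Trib1-/- GMP against 5.93 in wild-type GMP, the only accessory gene above 0 (0.22), and its other probe sets were at -1.07 and -0.21. Ndufab1 read 5.48 in Trib1-/- MDP and 5.56 in wild-type MDP, and 5.72 in Trib1-/- GMP against 6.82 in wild-type GMP.

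Assembly factors, which build complex I without staying in it, differed from the subunits with the probe sets chosen here. Of 6 measured Ndufaf genes, 3 were below 0 in GMP and the median was -0.04. Ndufaf2, which acts late in assembly, was the exception: it read 2.90 in Trib1-/- MDP and 2.44 in wild-type MDP, both below the floor, and 3.52 in Trib1-/- GMP against 4.94 in wild-type GMP (-1.42). Ndufaf1 was at -0.58, Ndufaf4 at -0.14, Ndufaf5 at 0.08, Ndufaf7 at 0.15 and Ndufaf8 at 0.07. The other probe set of Ndufaf4 read -0.40 and that of Ndufaf8 -0.62 in GMP. The GMP count and median of these genes therefore depend on the probe set chosen. In MDP, 5 of the 6 were above 0 with a median of 0.40, but 3 of them were below the floor in wild-type MDP, and with values raised to the floor 4 were above 0 with a median of 0.15. No replicate allows a test of the difference between subunits and assembly factors.

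All 8 complex III genes were below 0 in GMP. Uqcrfs1, the Rieske iron-sulfur protein gene, read 5.89 in Trib1-/- MDP and 5.89 in wild-type MDP, and 5.71 in Trib1-/- GMP against 6.76 in wild-type GMP (-1.05). It was the only gene of this complex at least 2-fold apart, and the next were the core protein gene Uqcrc1 (-0.89) and the small subunit gene Uqcr11 (-0.82). Uqcr10 was the least apart (-0.07), followed by Uqcrc2 (-0.42), Uqcrh (-0.50), Uqcrb (-0.62) and Uqcrq (-0.68, below the floor on both MDP arrays).

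Complex IV split by isoform. Of the 10 genes that are not tissue isoforms, 9 were below 0 in GMP with a median of -0.71, and 3 were at least 2-fold lower. Cox4i1, the common form of subunit 4, read 5.32 in Trib1-/- MDP and 5.43 in wild-type MDP, and 5.78 in Trib1-/- GMP against 6.98 in wild-type GMP (-1.20). Cox6b1 read 5.15 and 5.69 in Trib1-/- and wild-type MDP, and 6.01 in Trib1-/- GMP against 7.14 in wild-type GMP (-1.13, other probe set -1.36). Cox6a1 read 6.99 and 6.94 in Trib1-/- and wild-type MDP, and 7.42 in Trib1-/- GMP against 8.45 in wild-type GMP (-1.03, other probe set -1.33). Their wild-type GMP values again stood alone above the other arrays. Cox8a, the common partner of Cox8b, read 4.62 in Trib1-/- MDP and 5.32 in wild-type MDP, and 4.95 in Trib1-/- GMP against 5.83 in wild-type GMP (-0.88). Cox7a2 read 8.44 in Trib1-/- MDP and 8.59 in wild-type MDP, and 8.87 in Trib1-/- GMP against 9.38 in wild-type GMP (-0.51). The supercomplex factor gene Cox7a2l read 6.35 in Trib1-/- MDP and 6.58 in wild-type MDP, and 6.5 in Trib1-/- GMP against 6.87 in wild-type GMP (-0.37). These 3 had their highest value in wild-type GMP too. Cox6c (-0.74), Cox5b (-0.68) and Cox5a (-0.67) were below 0 as well, and Cox7c was not (0.09). The 5 measured isoforms of muscle or testis did not share this pattern, with 4 of 5 above 0 and a median of 0.31, or 0.09 with values raised to the floor. Cox8b of heart and muscle read 2.02 in Trib1-/- MDP and 3.17 in wild-type MDP, and 3.34 in Trib1-/- GMP against 2.83 in wild-type GMP (0.51, or 0.05 once raised to the floor), barely reaching the floor on 1 array. Cox6a2, the muscle partner of Cox6a1, read 4.44 in Trib1-/- MDP and 4.92 in wild-type MDP, and 4.31 in Trib1-/- GMP against 3.97 in wild-type GMP (0.34), so its MDP values were the higher ones. Cox6b2, the testis partner of Cox6b1, read 3.39 in Trib1-/- MDP and 3.5 in wild-type MDP, and 2.93 in Trib1-/- GMP against 3.59 in wild-type GMP, all near the floor, and differed by -0.66, or by -0.30 with the value below the floor raised to it. Cox7b2 (0.31) and Cox8c (0.09) were also above 0.

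Values that moved with the GMP comparison are set beside it. The 5 hybridisation controls BioB and BioC, added in fixed amounts, read 0.37 higher on the Trib1-/- GMP array than on the wild-type GMP array, and the 4 BioD and Cre controls 0.04 higher. The Cre probe sets read 13.9 to 14.1 on all 4 arrays, near the highest value of 14.5. RMA makes array distributions alike, so values this high leave little room for a difference. The signal of Actb was 1.91 higher at its 3-prime than at its 5-prime end in Trib1-/- GMP against 2.01 in wild-type GMP, and that of Gapdh 1.20 against 1.06. Of 8 GMP markers, 7 were below 0 in Trib1-/- GMP with a median of -0.54, and their summed signal was 12.7 in Trib1-/- GMP against 12.9 in wild-type GMP on the log2 scale. All 7 basophil and mast cell markers were below 0, 4 of them at least 2-fold lower, with a summed signal of 7.64 against 8.91. The part of these in the lower chain genes was not tested.

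Promoter sequences are shown for the 4 members furthest apart between the GMP genotypes that have an entry in the RefSeq promoter table (build GRCm38.p6), since they carry the largest GMP differences. Each runs from 250 bases before to 50 bases after the annotated start, 5′ to 3′ on the gene's strand, and capitals mark a match to a motif of a factor known to act on nuclear genes of mitochondria. Atp5e lies at chr2:174464052-174464351, minus strand, Ndufaf2 at chr13:108158576-108158875, minus strand, Ndufb7 at chr8:83566508-83566807, plus strand and Ndufs7 at chr10:80249199-80249498, plus strand. Sdhc and Atp5mpl, with larger differences than Ndufs7, have no entry.
Atp5e: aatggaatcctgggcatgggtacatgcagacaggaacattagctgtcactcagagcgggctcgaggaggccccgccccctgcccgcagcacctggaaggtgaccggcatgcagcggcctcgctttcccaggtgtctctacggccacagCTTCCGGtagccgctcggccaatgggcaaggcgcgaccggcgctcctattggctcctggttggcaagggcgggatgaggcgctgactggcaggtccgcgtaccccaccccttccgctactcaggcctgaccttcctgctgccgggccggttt
Ndufaf2: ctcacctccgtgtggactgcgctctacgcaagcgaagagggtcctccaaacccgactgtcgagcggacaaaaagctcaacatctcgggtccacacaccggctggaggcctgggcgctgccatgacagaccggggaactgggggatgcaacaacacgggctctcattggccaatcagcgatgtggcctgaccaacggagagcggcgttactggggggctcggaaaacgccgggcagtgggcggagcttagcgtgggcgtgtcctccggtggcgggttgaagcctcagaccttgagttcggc
Ndufb7: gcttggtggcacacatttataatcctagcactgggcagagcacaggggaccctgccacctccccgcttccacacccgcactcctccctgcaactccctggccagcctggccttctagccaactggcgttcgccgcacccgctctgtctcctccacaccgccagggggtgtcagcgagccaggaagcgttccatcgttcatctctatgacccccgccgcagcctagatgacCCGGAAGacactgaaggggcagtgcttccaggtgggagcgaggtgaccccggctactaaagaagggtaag
Ndufs7: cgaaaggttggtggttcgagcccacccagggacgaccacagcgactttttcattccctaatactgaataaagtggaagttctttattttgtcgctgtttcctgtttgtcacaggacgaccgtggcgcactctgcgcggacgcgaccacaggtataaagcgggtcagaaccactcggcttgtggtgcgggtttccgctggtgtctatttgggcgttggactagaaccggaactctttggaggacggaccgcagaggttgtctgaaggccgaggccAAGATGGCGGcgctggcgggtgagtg

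Letters searched on both strands were CCGGAAG, the core of the ETS family factor GABP, the palindromic site of NRF1 (GCGCA joined to TGCGC), and a site of YY1 (AAGAT joined to GGCGG). None overlapped another in the sequences shown. Atp5e held the GABP core on the other strand, Ndufb7 held it on the gene's strand, Ndufs7 held the YY1 letters, and Ndufaf2 held none of the 3. Among the 70 members above the floor with a promoter entry, 19 (27.1%) held the GABP core, 6 (8.57%) the NRF1 letters and 5 (7.14%) the YY1 letters. The shares over all 27025 genes with an entry were 9.93%, 1.07% and 0.995% in that order, and over all 32851 promoters 8.86%, 0.971% and 0.852%. These are not limited to genes above the floor, as the members are, so membership and being expressed cannot be told apart in them. The median GMP difference was -0.82 over members with the GABP core and -0.71 over those without it. It was -0.90 with and -0.74 without the NRF1 letters, and -0.69 with and -0.75 without the YY1 letters. The medians on either side of each division were thus below 0 in Trib1-/- minus wild-type GMP. A match describes the letters and shows no binding.

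In MDP the same genes differed far less between genotypes. Of 83 members 57 were below 0, where 48.5% of all genes were, 24 above 0 and 2 equal, and the median was -0.14 against 0.01 over all genes. At least 2-fold lower were 2 members (2.41%) and at least 2-fold higher 0, where the background was 1.53% lower and 1.1% higher. Among the 4806 genes at the members' level the median was 0.07, with 40.9% of genes below 0 where 68.7% of members were. The complex medians were -0.09 for I, 0.09 for II, -0.08 for III, -0.30 for IV and -0.16 for V. Those of I, II and III had no settled sign, running over the alternatives from -0.14 to 0.007 for I, from -0.11 to 0.10 for II and from -0.30 to 0.08 for III. Of the pair at least 2-fold lower, Ndufs7 has been described and Cox8b (-1.16) was below the floor on both MDP arrays, so its fold is not interpretable.

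The next largest differences in MDP, all less than 2-fold, came from several complexes. Ndufb5 read 4.75 in Trib1-/- MDP and 5.70 in wild-type MDP (-0.94), and 6.68 in Trib1-/- GMP against 7.55 in wild-type GMP (-0.87), and its other probe set was at -0.28 in MDP. Uqcr11 read 3.67 in Trib1-/- MDP and 4.49 in wild-type MDP (-0.83), and 3.90 in Trib1-/- GMP against 4.72 in wild-type GMP. Atp5e was at -0.71, Cox8a at -0.70 and Atp5o, a stalk subunit gene, at -0.62. Ndufa8 was at 0.54 with all arrays above the floor, and Ndufaf1 at 0.59, or 0.34 with its wild-type MDP value raised to the floor. Markers of mature macrophages moved with the MDP genotypes: 8 of 9 above the floor were at least 2-fold lower in Trib1-/- MDP, and the summed signal of the 12 named was 6.91 in Trib1-/- MDP against 9.01 in wild-type MDP. BioB and BioC read -0.13 in this comparison. The part of either in the MDP values was not tested.

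The genotype comparisons in GMP and MDP have no array in common. Below 0 in both were 51 of 83 members (61.4%), where 25.6% of all genes were. Only Ndufs7 was at least 2-fold lower in both, and its other probe set was not in MDP (-0.54). The joint count follows largely from the separate shares below 0, 88.0% of members in GMP and 68.7% in MDP. Those of all genes were 55.2% and 48.5%. It is therefore no separate sign of a shared difference. Across the 83 members the GMP and MDP differences correlated with a Pearson r of 0.06 and a Spearman rho of 0.04, a description over genes measured on the same arrays.

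**Figure D2:**
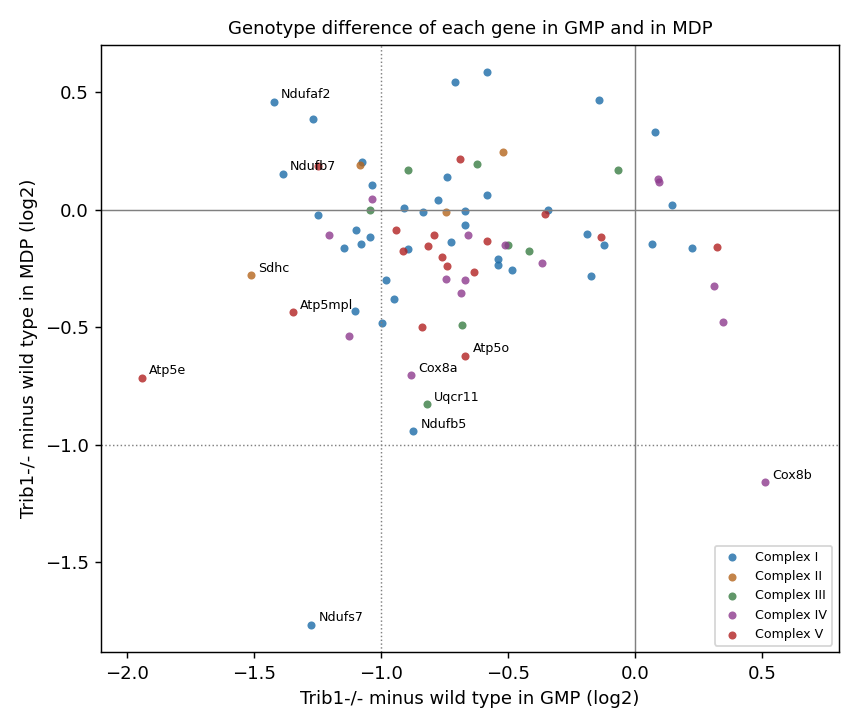
Difference Trib1-/- minus wild type (log2) in GMP (horizontal axis) and in MDP (vertical axis) for each of the 83 genes, coloured by complex. Dotted lines mark 2-fold lower. Most points lie left of 0 and close to 0 on the vertical axis, with Ndufs7 alone beyond -1 on both.

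Between progenitors, the chain genes were lower in MDP than in GMP, and the gap was wider in wild type. In Trib1-/- cells 69 of 83 members were below 0 in MDP minus GMP, where 51.3% of all genes were, with a median of -0.33 against -0.01 over all genes, and 5 (6.02%) were at least 2-fold lower where the background was 4.08%. In wild-type cells 76 of 83 were below 0, where 52.6% of all genes were, the median was -1.0 against -0.04 over all genes, and 42 (50.6%) were at least 2-fold lower where the background was 12.4%. The background for at least 2-fold higher was 2.75% in Trib1-/- and 4.16% in wild type, and 0 and 1 members reached it. The wild-type comparison shares the wild-type GMP array with the GMP genotype comparison and the Trib1-/- comparison shares the Trib1-/- GMP array with it, so they are not independent of it. BioB and BioC read 0.16 higher in Trib1-/- MDP than in Trib1-/- GMP, and 0.66 higher in wild-type MDP than in wild-type GMP. The 3-prime minus 5-prime signal of Gapdh was 1.66 in Trib1-/- MDP and 1.44 in wild-type MDP, against 1.20 in Trib1-/- GMP and 1.06 in wild-type GMP. That of Actb was 1.67, 2.01, 1.91 and 2.01 in the same order. The part of these in the progenitor differences was not tested.

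**Figure D3:**
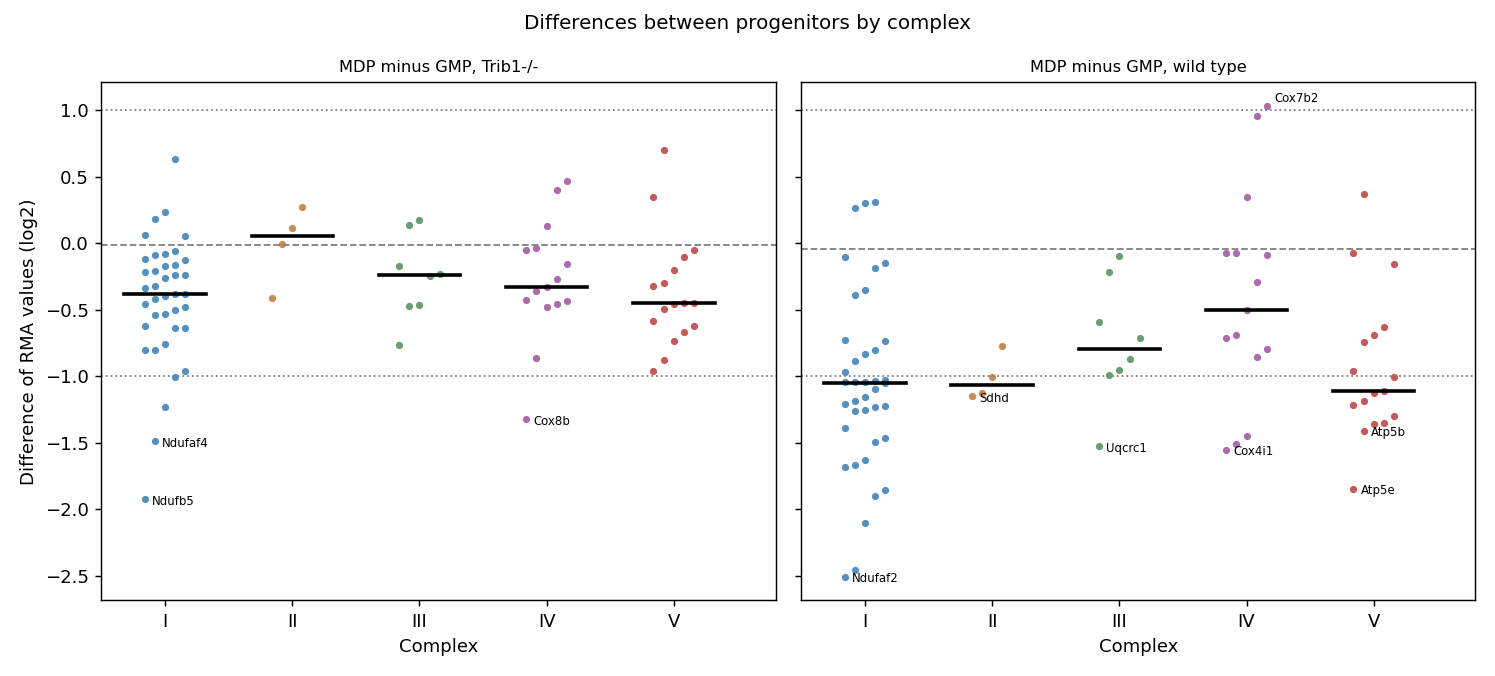
Difference of RMA values (log2, vertical axis) between MDP and GMP for each of the 83 genes, by complex, in Trib1-/- (left) and wild-type cells (right). Points are genes, black bars are medians of a complex, the dashed line is the median of all genes and dotted lines mark 2-fold. Complex medians lie between -0.45 and 0.05 in Trib1-/- cells and between -1.11 and -0.51 in wild-type cells.

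By complex the medians of MDP minus GMP were -0.38 in Trib1-/- and -1.05 in wild type for complex I, 0.05 and -1.06 for complex II, -0.24 and -0.79 for complex III, -0.33 and -0.51 for complex IV, and -0.45 and -1.11 for complex V. The complex IV medians were -0.06 in Trib1-/- and -0.09 in wild type without suffixed probe sets, those whose name marks a possible match to several transcripts, and -0.39 in Trib1-/- and -0.76 in wild type without the tissue isoforms. The complex II median in Trib1-/- cells had no settled direction: Sdhb read 0.27 and Sdhc 0.11, Sdha was at -0.01 with its brightest probe set and at -0.68 with another, and the median was -0.46 without suffixed probe sets and -0.12 with the mean of the probe sets. All 5 F1 genes were at least 2-fold lower in wild-type MDP than in wild-type GMP, and none was in Trib1-/- cells, where Atp5b (-0.96) was the furthest apart. Atp5b read 7.06 in Trib1-/- MDP and 7.19 in wild-type MDP, and 8.02 in Trib1-/- GMP against 8.6 in wild-type GMP.

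The genes furthest apart in wild type belonged to complex I and the synthase. Ndufaf2 was at -2.51 and Ndufa1 at -2.46, or -1.66 and -1.73 with MDP values below the floor raised to it. Ndufaf4, an early assembly factor gene, read 3.57 in Trib1-/- MDP and 3.10 in wild-type MDP against 5.06 in Trib1-/- GMP and 5.2 in wild-type GMP, so it was lower in MDP of either genotype (-1.49 in Trib1-/- and -2.1 in wild type, or -1.91 once raised to the floor). Ndufb5 behaved alike, at -1.92 in Trib1-/- and -1.85 in wild type, with its other probe set at -0.99 and -1.81. Ndufv3 read 5.24 in Trib1-/- MDP and 5.14 in wild-type MDP against 6.0 in Trib1-/- GMP and 7.04 in wild-type GMP (-0.76 and -1.90), and Atp5e was at -0.62 and -1.85. The others at least 2-fold lower in Trib1-/- MDP were Cox8b (-1.32, or -0.05 once raised to the floor), Ndufs7 (-1.23, while its other probe set read 0.12) and Ndufv1 (-1.01), and next to them stood Atp5b and Ndufa4 (both -0.96).

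A few genes ran the other way between progenitors. In wild type, Cox7b2, a testis isoform, was at 1.03, with values of 4.68 in Trib1-/- MDP and 5.01 in wild-type MDP, and 4.29 in Trib1-/- GMP against 3.98 in wild-type GMP. Cox6a2 of muscle was at 0.95. Atp5md (0.37), Cox8b (0.35), Ndufb2 (0.31), Ndufaf7 (0.30) and Ndufaf8 (0.26) were the remaining genes above 0. Of these, Cox8b was below the floor on both wild-type arrays, and the other probe sets of Ndufb2 read -1.48 and -0.64. The other probe set of Ndufaf8 read -0.11. Ndufaf7 read 4.64 in Trib1-/- MDP and 4.61 in wild-type MDP, and 4.46 in Trib1-/- GMP against 4.31 in wild-type GMP, a narrow range. In Trib1-/- cells the genes furthest above 0 were Atp5k (0.70), Ndufs5 (0.63), Cox6b2 (0.46, or 0.11 once raised to the floor), Cox7b2 (0.40), Atp5j2 (0.34) and Sdhb (0.27). Atp5j2, the f subunit gene, read 6.57 in Trib1-/- MDP and 6.81 in wild-type MDP, and 6.22 in Trib1-/- GMP against 6.96 in wild-type GMP, the lowest value being that of Trib1-/- GMP. Ndufa4 read 5.27 in Trib1-/- MDP and 5.7 in wild-type MDP, and 6.23 in Trib1-/- GMP against 7.33 in wild-type GMP, its lowest value being that of Trib1-/- MDP.

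Array by array, wild-type GMP held the highest value of 72 of 83 members (86.7%), where it held that of 37% of all genes. Trib1-/- GMP was highest for 3 members, wild-type MDP for 5 and Trib1-/- MDP for 3. Both MDP arrays lay below both GMP arrays for 52 members (62.7%), where this held for 29.8% of all genes. The median level of the members was 5.43 in Trib1-/- MDP, 5.56 in wild-type MDP, 5.79 in Trib1-/- GMP and 6.76 in wild-type GMP, so the step from Trib1-/- to wild-type GMP was the widest. With a single wild-type GMP array, a property of that array and of the genotype cannot be told apart. The comparisons that do not use it are those of the MDP genotypes (median -0.14) and of the Trib1-/- progenitors (-0.33).

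**Figure D4:**
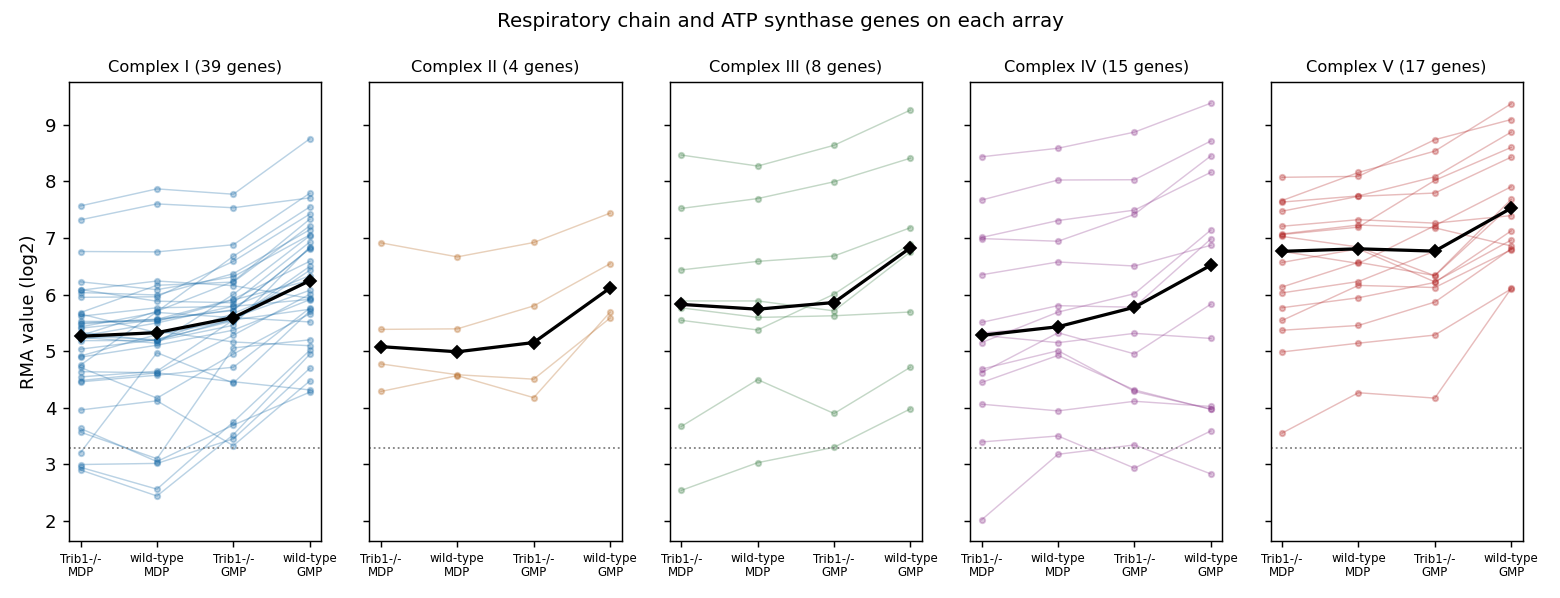
RMA value (log2, vertical axis) of each gene on the 4 arrays, by complex. Coloured lines are genes, black diamonds are medians and the dotted line is the floor of 3.29. In each complex the wild-type GMP median is the highest of the 4.

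Probe sets of the members told much the same as the 1 chosen per gene. Of 150 member probe sets above the floor, 134 (89.3%) were below 0 in Trib1-/- minus wild-type GMP, with a median of -0.74, and 97 (64.7%) in the MDP comparison, with a median of -0.13. Of 43 members with several such probe sets, 35 had all in the same direction in the GMP comparison and 24 in the MDP comparison. Among the 8 of these at least 2-fold apart in GMP, Ndufab1 was the exception.

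Other genes of mitochondrial energy metabolism were apart by less in GMP. Pyruvate dehydrogenase and citric acid cycle genes had a median of -0.39 in Trib1-/- minus wild-type GMP, with 14 of 16 below 0 and 0 at least 2-fold apart. Suclg1, a succinyl-CoA ligase subunit gene, was at -0.92, the dihydrolipoamide dehydrogenase gene Dld at -0.89 and Idh3b at -0.87, while Ogdh was at 0.42. Genes of electron carriers and coenzyme Q synthesis stood at a median of -0.32, none of the 16 reaching 2-fold, among them Etfb (-0.75), cytochrome c (Cycs, -0.64) and cytochrome c1 of complex III (Cyc1, -0.24). In MDP the medians of these lists were 0.003 and -0.06. In wild-type MDP against wild-type GMP, 8 of 16 pyruvate dehydrogenase and citric acid cycle genes were at least 2-fold lower, where 12.4% of all genes were. Suclg1 (-2.06) and Mdh2 (-1.66) were the furthest.

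Assembly factors outside the Ndufaf genes had a median of -0.17 in GMP, with 24 of 34 below 0 and 5 at least 2-fold lower. Over all genes 55.2% were below 0 and 3.16% at least 2-fold lower. Coa3, a factor for complex IV, read 4.04 in Trib1-/- MDP and 4.50 in wild-type MDP, and 4.20 in Trib1-/- GMP against 6.02 in wild-type GMP (-1.81). The copper chaperone gene Cox17 was at -1.25, Atpif1 at -1.16 and Surf1 at -1.08, and Uqcc2 completed the 5 at -1.06. Atpif1, the inhibitor of the ATP synthase rather than an assembly factor, is counted in this list. In MDP, 1 was at least 2-fold lower (Lyrm7, -1.03) and 1 higher (Uqcc3, 1.03, or 0.68 when wild-type MDP is set to the floor). Over all genes 1.53% were at least 2-fold lower and 1.1% higher, so 1 of 34 each way stands near the background.

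Regulators of mitochondrial gene expression had medians of -0.06 in GMP and -0.09 in MDP, and 0 of 14 were at least 2-fold apart in either. In GMP, Myc, which drives growth and mitochondrial genes, was at -0.78 and the coactivator gene Ppargc1a at 0.75, and Nrf1 (0.40), Gabpa (-0.06), Yy1 (-0.07) and Tfam (0.11) lay between. Between wild-type progenitors Myc was at -2.1 and Gabpb1 at -1.33. The single gene of mitochondrial DNA measured, ND5 of complex I, read 10.1 in Trib1-/- MDP and 10.2 in wild-type MDP, and 10.6 in Trib1-/- GMP against 10.4 in wild-type GMP, a GMP difference of 0.17 where nuclear complex I genes had a median of -0.78.

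**Figure D5:**
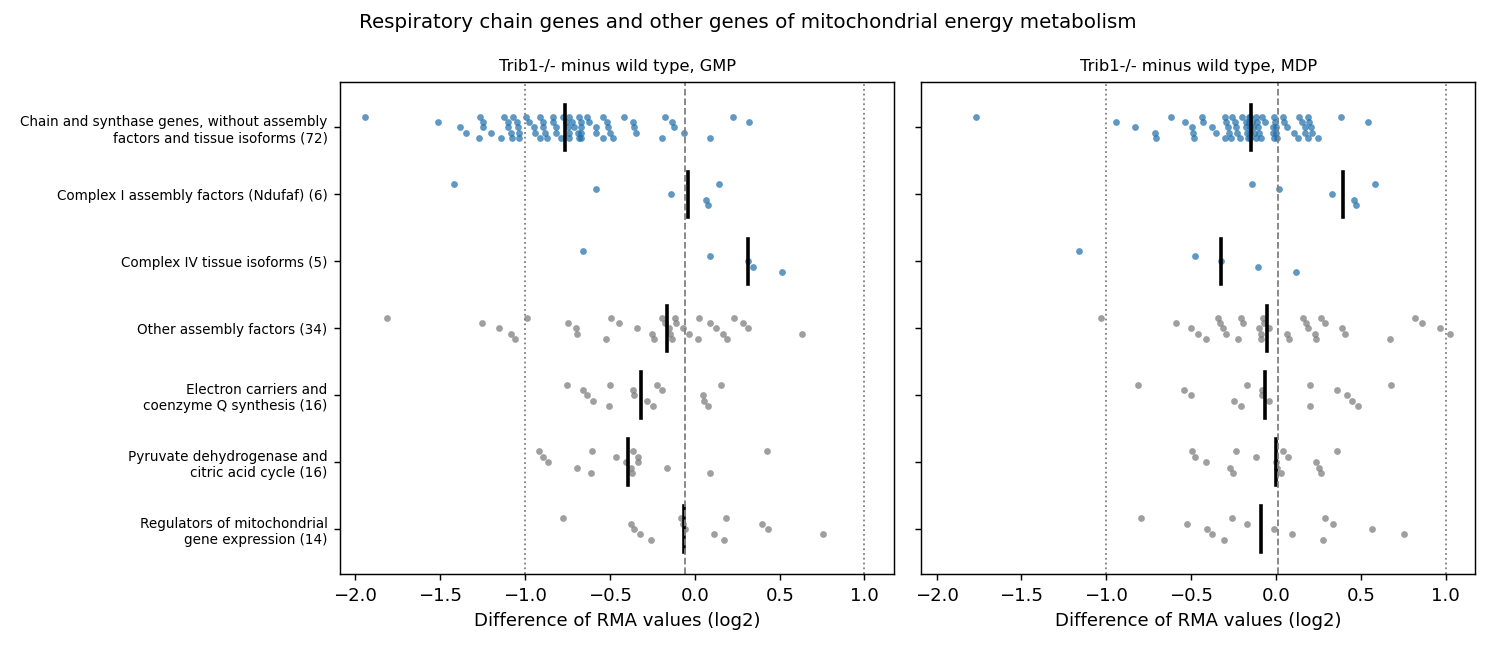
Difference Trib1-/- minus wild type (log2, horizontal axis) in GMP (left) and MDP (right) for groups of the chain and synthase genes (blue) and other lists (grey), with the number of genes in brackets. Points are genes, black bars medians, the dashed line the median of all genes and dotted lines 2-fold. Of the 7 groups drawn, the 72 subunit genes have the lowest GMP median, -0.77, and the tissue isoforms of complex IV the highest, 0.31 (0.09 with values raised to the floor).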

How the data were processed

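The authors made the values with RMA, per the submitters' processing notes, a method that corrects background, normalizes across arrays and summarises each probe set. The deposited values are taken as log2, inferred from their range of 0.141 to 14.5. Array medians were 3.27 to 3.31. RNA was amplified and biotin-labelled with the NuGEN Ovation system, per the labels' protocols. RMA makes array distributions alike, so a change in total RNA per cell cannot be seen.

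Of 45101 probe sets, 64 controls were left out and 34945 had 1 symbol in the platform annotation. Each gene was represented by its probe set of the highest mean over 4 arrays (18193 genes). Differences, counts at 2-fold and medians were computed with Python 3.11.15 and pandas 2.3.3, and cyclic loess with limma 3.58.1. The calculation was tested on simulated data. The alternatives tried were the 75th percentile (4.78) or nothing as the floor, values raised to the floor, means of probe sets, no suffixed probe sets, loess (3 iterations), centring, and 32 added to linear values. Leaving out assembly factors and tissue isoforms was chosen after seeing the data.

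The members and lists were chosen with earlier results of these data known. Values on all arrays are given for genes at least 2-fold apart between genotypes (up to 12 per contrast). They are also given for the 6 furthest apart between progenitors in each direction. The complex I core, complex II, isoform pairs and some, not all, of the genes whose probe sets disagree have them too. Up to 4 genes of each other list were named. Beyond these were the fifth gene of the assembly factor list, Nrf1, Gabpa, Yy1 and Tfam, chosen after their values were seen. Other members are given by their differences, as examples. Promoters are from RefSeq (GRCm38.p6).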

Additional observations from a re-analysis of the deposited data

How the results depend on the processing

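The member medians kept their sign under every alternative run, between -0.77 and -0.51 in the GMP genotype comparison, between -0.19 and -0.08 in that of MDP, and for MDP minus GMP between -0.38 and -0.18 in Trib1-/- and between -1.03 and -0.64 in wild type. Most changes were in counts, given here with the share of all genes under the same setting. The 21 members at least 2-fold lower between GMP genotypes were 12 with centred arrays (2.02%), 2 with 32 added to the linear value (0.129%, Atp5e and Atp5mpl), and 54 at 1.5-fold (13.2%). Without a floor 1 was at least 2-fold higher (0.500%, Ndufb4, below the floor on all 4 arrays). Centring takes out a difference of -0.10 between the medians of the 2 GMP arrays, so it raises every GMP genotype difference by that size. The 2 lower between MDP genotypes were 1 with the floor at the 75th percentile (0.910%), 1 with values raised to the floor (0.687%), 1 without assembly factors and tissue isoforms, 0 with 32 added (0.0257%) and 7 at 1.5-fold (7.61%), with 1 higher at 1.5-fold (7.16%). For MDP minus GMP in Trib1-/-, the 5 lower were 1 with 32 added (0.558%), 3 without assembly factors and tissue isoforms and 19 at 1.5-fold (12.7%), with 2 higher at 1.5-fold (10.2%). In wild type, the 42 lower were 14 with 32 added (2.72%), and the 1 higher was 2 with centred arrays (6.69%), 2 at 1.5-fold (15.9%) and 0 under loess (4.06%), with 32 added (0.412%) or without assembly factors and tissue isoforms. Here centring takes out a difference of -0.13 between the array medians and so raises every difference. The complex II median was -0.53 with 32 added in the GMP comparison, and -0.46 without suffixed probe sets in MDP minus GMP of Trib1-/- cells. Ndufs7 in MDP minus GMP of Trib1-/- cells reversed to 0.12 without suffixed probe sets, where its other probe set stands in. Adding 32 shrinks differences of weak genes by construction. The cause of the other changes was not tested. No paired analysis was possible because each group has 1 array, and none could be left out.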

Other observations

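The choice of probe set hides some differences, picked here after their values were seen. Ndufb9 was at -0.48 in Trib1-/- minus wild-type GMP with the brightest probe set and at -1.15 with another, Cox7a2 at -0.51 and -1.05, Ndufa3 at -0.89 and -1.13, and Atp5o at -0.67 and -1.16. In MDP, Ndufa7 was at -0.15 with the brightest probe set and at -1.15 with another, whose value in Trib1-/- MDP was 2.95, below the floor, and Ndufc1 at -0.28 and -1.04, the second again below the floor in Trib1-/- MDP at 2.19. The brightest probe set of Cox7c and Uqcr10 hardly separated the 4 arrays, with Cox7c between 5.15 and 5.31 and Uqcr10 between 5.59 and 5.76.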
